A study of Mus musculus with 4 samples.

Results

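The Zic genes encode transcription factors of the C2H2 zinc finger class, and 4 of them, Zic1, Zic2, Zic4 and Zic5, were looked up in single-base maps of N6-methyladenosine (m6A) from mouse retinal organoids. Sites were taken where a listed adenosine lay inside the start, end and strand of a member gene as the site lists give them. Of the 4 genes, 1 had a feature in any list: Zic2 (ENSMUSG00000061524, chromosome 14, 122712847 to 122717264, plus strand, 4418 bases). It held 149 different sites of 881997 in all lists. Zic1, Zic4 and Zic5 have no feature of that name in these lists, so no site could be placed in them, and what follows is about Zic2.

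The organoids were on day 4 of differentiation. The wild-type (WT) group was the Rx:GFP line, in which a green fluorescent reporter reports on Rax, a transcription factor gene of the early eye field. The second group was a Mettl3 knockout (KO) of the same reporter line, which also carries an HA-tagged METTL3 under doxycycline control, and its treatment label reads "No". All organoids received GMEM with 5% KSR, non-essential amino acids, β-ME, sodium pyruvate and 0.1 µM AGN. Each group had 2 libraries, and all 4 carry the same batch label. The labels do not say whether replicates came from separate cultures or how many KO clones were used, so p-values measure only the spread between these libraries, which may be technical.

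Zic proteins bind DNA through zinc fingers related to those of the Gli factors, the effectors of Hedgehog signalling. They act early in the neural plate and later in the dorsal neural tube, neural crest and cerebellum. Zic2 is needed for forebrain midline formation, and in the later retina it marks ganglion cells whose axons stay on the same side of the brain. METTL3 is the catalytic subunit of the nuclear complex that writes most m6A in mRNA, and methylated mRNAs are commonly less stable than unmethylated ones.

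In GLORI, the assay used here, glyoxal and nitrite turn unmethylated adenosine into a base that is read as G, while m6A is still read as A. The level of a site is the fraction of its A or G reads that still read A, and its coverage is the number of those reads. The lists hold 227298 and 288516 sites for the WT and 230299 and 215850 for the KO, with median coverages of 38 to 41 reads. No listed site has fewer than 15 reads, fewer than 5 of them unconverted, a level under 0.1 or a deposited p-value over 0.004. A site can be unlisted through any of these limits, and the lists do not say which. The targeted gene was checked first. Mettl3 coverage was 1.01 and 0.801 times the median gene of each WT library and 1.16 and 1.04 times in the KO (log2 change 0.29 ± 0.18, SE; limma adjusted p 0.349). The position of the lesion is not given in the labels, so RNA coverage does not check them.

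The numbers of listed Zic2 sites overlapped between the genotypes, while their median levels were lower in both KO libraries, as over the whole series. The WT libraries listed 34 and 47 Zic2 sites and the KO libraries 36 and 58 (exact permutation p = 0.667, two-sided). With 2 libraries a group, that test cannot give a p below 0.333. Of these sites, 7 and 15 in the WT and 6 and 11 in the KO carry a chromosome-wide coverage value instead of that of Zic2. The median level of the listed Zic2 sites was 0.221 and 0.253 in the WT and 0.162 and 0.156 in the KO, and the groups did not overlap. The difference was -0.0777 (exact permutation p = 0.333). Over all listed sites of the series the medians did not overlap either, at 0.246 and 0.241 in the WT and 0.213 and 0.232 in the KO. The share of genes with such a separation was not computed, so it is not shown to be particular to Zic2.

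Zic2 sites with high levels were fewer in the KO lists. Sites with a level of at least 0.5 numbered 6 and 14 in the WT and 1 and 2 in the KO libraries (exact permutation p = 0.333). Most of these were thin, and some in both WT libraries and in KO library 2 carry the chromosome-wide value. With a coverage of at least 100 reads there were 13 and 19 Zic2 sites in the WT, of which 2 and 3 reached a level of 0.5. The KO libraries had 16 and 13 sites at that coverage and 0 and 0 of them reached 0.5. Among all sites of the series with that coverage, the share at 0.5 or above was 5.82% and 5.49% in the WT and 0.485% and 0.751% in the KO. At the low end, 69.2% and 52.6% of the deep WT Zic2 sites and 87.5% and 84.6% of the deep KO sites had a level below 0.2, beside 74.5% and 74.1% against 86.0% and 83.6% over all sites.

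**Figure D1:**
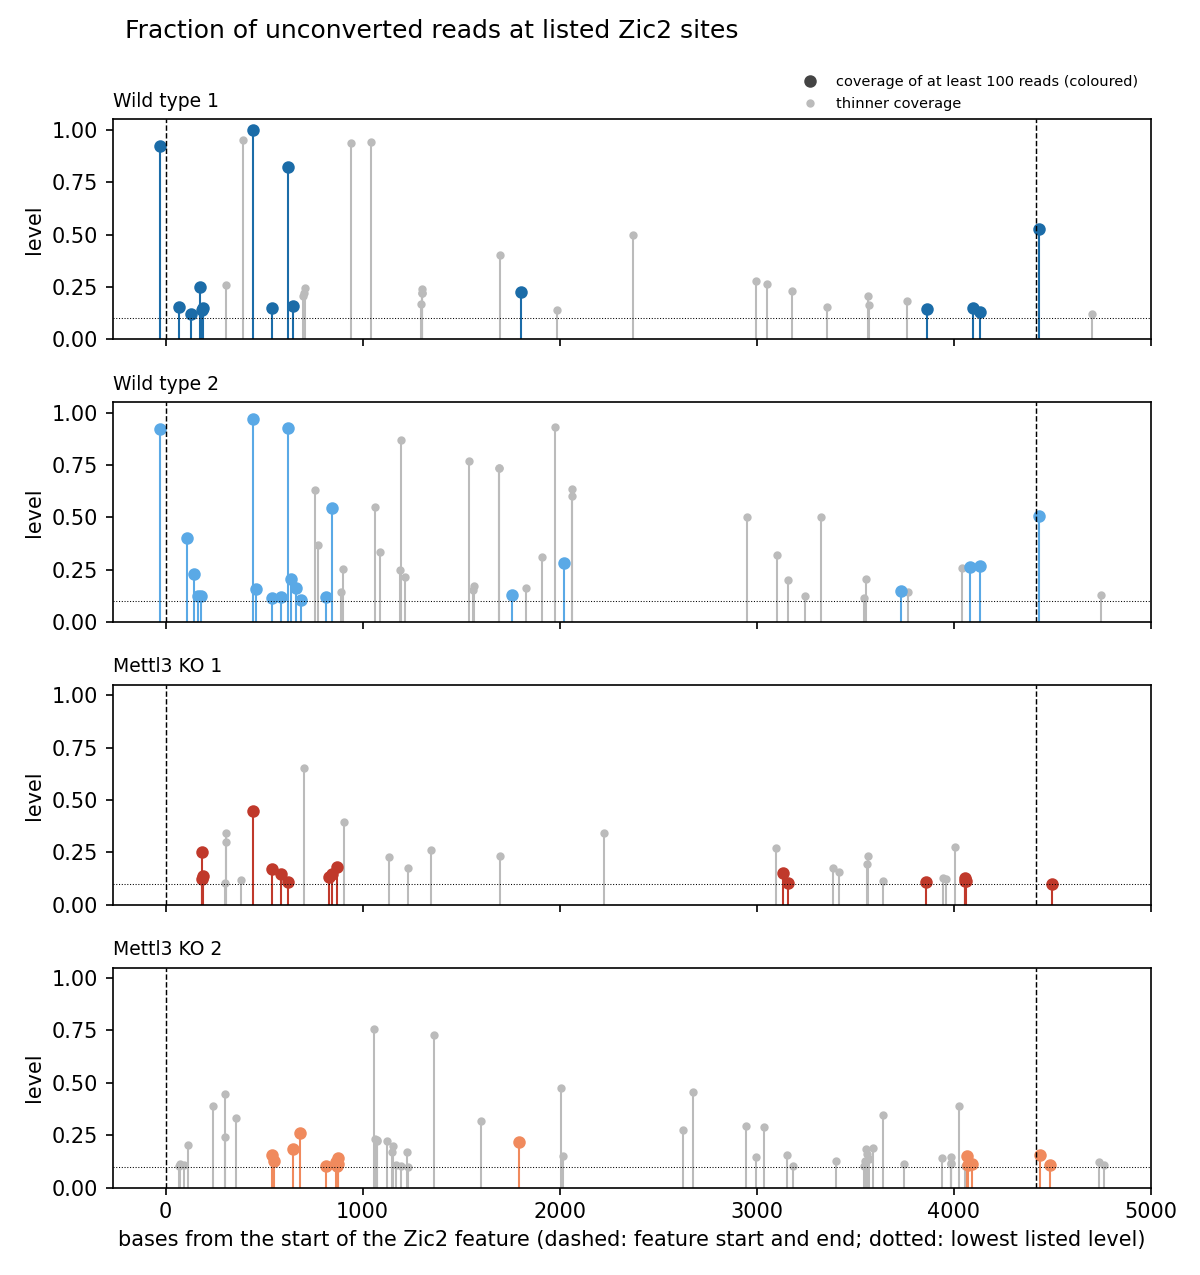
Level (fraction of reads still read as A, vertical axis) of each listed site against its distance in bases from the start of the Zic2 feature, 1 panel per library. Coloured points have a coverage of at least 100 reads; tall coloured points stand in both WT panels, and the tallest in the KO panels is at 0.450.

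Most Zic2 sites were seen once. Of the 149 sites, 127 (85.2%) were in 1 library, 19 in 2, 2 in 3 and 1 in all 4; over all 881997 sites 91.9% were in 1 library. The WT pair shared 4 Zic2 sites and the KO pair 6. Pairs of libraries from different genotypes shared 3 to 8. Sites in 1 library had a median coverage of 71 reads, and the 22 sites in 2 or more libraries had one of 101. None of the 149 carries the deposited intron mark. The sites 1348 to 3103 and 3324 to 3416 bases past the first base carry the chromosome-wide value, and whether they lie in exons was not tested.

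All 4 Zic2 sites shared by the WT libraries had a coverage of at least 20 reads in each, and they fall into a high pair and a low pair. The first of the high pair lies at position 122713291, 444 bases past the first base of the feature. Its level was 1.00 and 0.970 in the WT at 116 and 100 reads, and 0.450 in KO library 1 at 120 reads (Wilson 95% interval 0.364 to 0.539, counting error only). It was not listed in KO library 2. From the WT coverage and the ratio of gene coverages, 88.2 reads were expected there, the lower of 2 estimates and not a bound. The nearest site listed there, 88 bases away, had 27 reads, fewer than that expectation. On the other side of 122713291, the site at 122713389 had 868 reads in KO library 2, so depth nearby was uneven. The WT reads were thus almost all unconverted, and the single measured KO level lay below both of them.

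The second of the high pair, at position 122713470, 623 bases past the first base, had levels of 0.826 and 0.929 in the WT at 149 and 322 reads. In KO library 1 its level was 0.108 at 279 reads (Wilson 95% interval 0.0764 to 0.149), close to the lowest level a list can hold. KO library 2 did not list it, although a site 21 bases away was covered there by 142 reads. Neither of the high pair enters the test of all 4 libraries. In the fit without KO replicate 2, where the single KO library is assumed to vary like the WT, the log2 odds changed by -6.33 at 122713291 (edgeR adjusted p 0.109) and by -6.02 at 122713470 (edgeR adjusted p 0.0803). Neither passed the threshold of 0.05, and that fit called 0 of 3194 sites lower (0%), with 411 at an unadjusted p under 0.05.

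The low pair had WT levels between 0.115 and 0.269. The site at 122713389, 542 bases past the first base, was the only Zic2 site in all 4 lists and the deepest of the 4. Its level was 0.150 and 0.115 in the WT at 645 and 711 reads, and 0.170 and 0.154 in the KO at 849 and 868 reads. The KO libraries lay above the WT libraries by a margin smaller than the gap between the latter. The means were 0.133 ± 0.0248 and 0.162 ± 0.0108 (SD, n = 2 each), and the change in log2 odds was 0.34 (edgeR adjusted p 0.833). In that fit 2.63% of 1557 sites were lower in the KO and 0% higher, with 29 higher at an unadjusted p under 0.05, 1 called higher by limma and 51 by Fisher's exact test on summed counts. Only sites in all 4 lists entered, so a site that fell under a level of 0.1 in a KO library could not be counted as lower. Of the sites shared by the WT libraries over the series, 81.3% of 26264 were in neither KO list, for reasons the lists do not give. As the gene's only site in the fit, the site at 122713389 is also the pooled Zic2 level, with an edgeR adjusted p of 0.781 over 821 genes. Its direction rests on which sites enter: without KO replicate 2 the high pair enters too, and the KO minus WT difference turned from 0.0291 to -0.213 (edgeR adjusted p 0.0692). The other low site, at 122716982 and 282 bases short of the feature's end, had levels of 0.133 and 0.269 in the WT at 330 and 346 reads. It was in neither KO list. By the lower estimates 391 and 305 reads were expected, and listed KO sites 74 and 42 bases away had 191 and 151 reads.

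Of these 4 sites, then, 1 was in neither KO list (25.0%, Wilson 95% interval 4.56% to 69.9%), 2 were in 1 KO list and 1 in both. The share rests on KO library 1, which alone listed the high pair: without KO replicate 1 it was 75% (3 of 4). Over all sites of the series measured in the same way, 81.3% of 26264 were in neither KO list. The Zic2 share rests on 4 sites, which share their libraries and transcript, and its difference from the series was not tested. With a level minimum of 0.3 in both WT libraries, 0 of 2 Zic2 sites were in neither KO list, beside 83% of 8312 over the series.

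A further pair of sites with high levels lay just outside the feature. They are described because they carry the gene coverage and conversion value that the authors gave Zic2, and they were chosen after their values were seen. The site at 122712819, 28 bases before the feature, had levels of 0.925 and 0.921 in the WT at 749 and 1158 reads, more reads than at any WT-shared site inside the feature. Neither KO library listed it, with 1119 and 874 reads expected by the lower estimates. The nearest listed KO sites were 162 bases away in library 1 (213 reads, level 0.516) and 95 bases away in library 2 (86 reads, level 0.105). The former, at 122712657, carries the chromosome's coverage value and had a level of 0.182 in WT library 1 at 132 reads. KO coverage at this end of the transcript was thus not observed at 122712819 itself. The site at 122717277, 13 bases past the feature's end, had levels of 0.528 and 0.505 at 413 and 513 reads and was likewise in neither KO list. Here KO coverage was seen close by: KO library 2 had 359 reads at a site 5 bases away, with a level of 0.156, and KO library 1 had 943 reads at 66 bases, with a level of 0.102.

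With these, 6 sites were listed in both WT libraries, and 4 of the 6 had a mean level of at least 0.5. Of those 4, 2 were in neither KO list, 2 were in the list of KO library 1 at 0.450 and 0.108, and 0 were in both KO lists. Of the 6 Zic2 sites shared by the KO libraries, 0 had a level of 0.3 or more in both, beside 902 of 10708 over the series. Of those 902, 39.1% were in neither WT list. The WT libraries also shared 4 plus-strand sites between 53 and 776 bases before the feature that carry the chromosome's coverage value instead of the gene's. Of the 4, 0 were in a KO list. Over the series 81.3% of 26264 WT-shared sites were in neither KO list, at a coverage minimum that not all of the 4 meet. Past the feature's end, the KO libraries shared such a site at 122718076, in neither WT list, with levels of 0.316 and 0.75 (19 and 16 reads). Those at 122712165, 122712657 and 122718086 were each in 1 WT list and that of KO library 1. The deepest of the 4 WT-shared sites, 53 bases before the feature at position 122712794, was covered by 1010 and 1510 reads with levels of 0.161 and 0.199. The other 3 had higher levels: 0.536 and 0.671 at 122712071 (110 and 231 reads), 0.944 and 0.737 at 122712381 (18 and 19 reads), and 0.533 and 0.895 at 122712551 (15 and 57 reads).

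**Figure D2:**
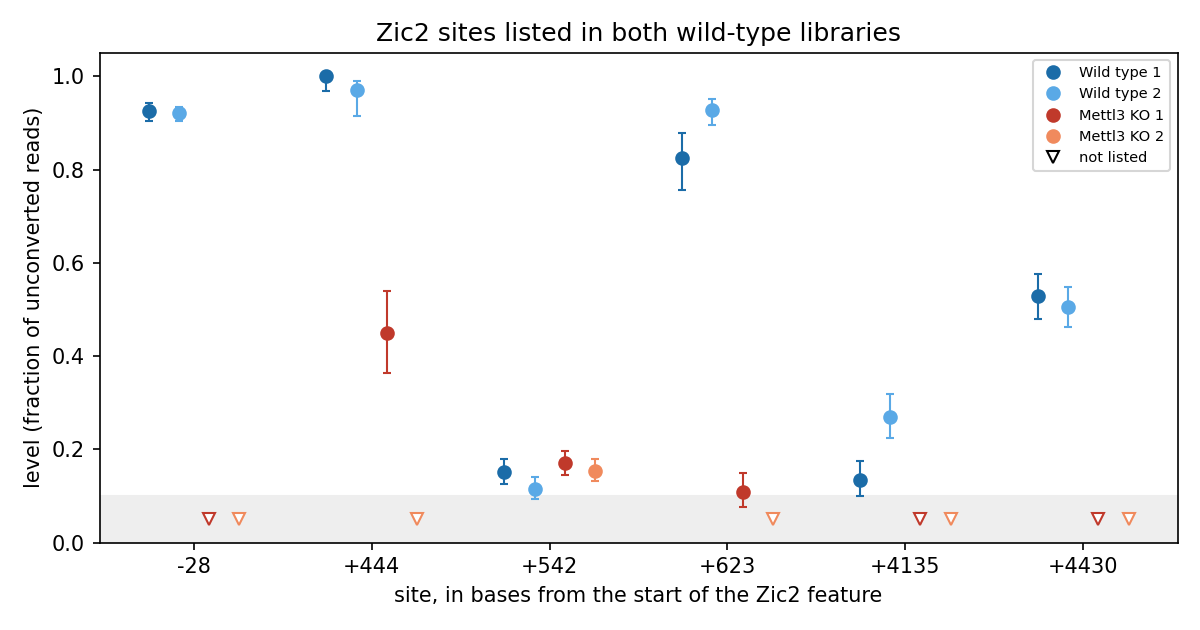
Level (vertical axis) of the 6 Zic2 sites listed in both WT libraries, by distance in bases from the feature's start, with 95% Wilson intervals of the reads as bars. Open triangles in the grey band mark libraries that did not list the site; the WT points at -28, 444 and 623 lie above 0.8 and the KO points at or below 0.450.

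The 6 sites shared by the KO libraries all had a coverage of at least 20 reads, and 1 of them is the site in all 4 lists. The other 5 were in neither WT list (83.3% of the 6, interval 43.6% to 97.0%; 68.0% of 10708 over the series). In 4 of the 5 the levels differed more between the KO libraries than in the fifth. The highest by mean, at 122713149, had 0.103 and 0.448 at 78 and 29 reads. The site at 122716490 had 0.115 and 0.347 at 87 and 75 reads. At 122713719 the levels were 0.182 and 0.104 at 225 and 201 reads, and at 122714076 they were 0.176 and 0.100 at 85 and 80 reads. The fifth, at 122716902, had 0.130 and 0.102 at 131 and 59 reads. At each of these 5 sites 1 of the KO libraries was near the lowest level a list can hold.

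In every library the first 1000 bases of Zic2 held the most sites and the deepest one. There were 15 and 18 WT sites and 16 and 17 KO sites, with median coverages of 115 and 146 reads and of 161 and 115 reads. Between 2000 and 2999 bases the lists held 2 and 4 WT sites and 1 and 6 KO sites, with coverages of 103 reads or fewer. At the 16 sites listed in at least 1 library of each genotype, the KO coverage was a median of 1.27 times the WT coverage (range 0.559 to 3.04), beside a ratio of 1.15 for the deposited gene coverage. The level was lower in the KO at 9 of these 16 sites and higher at 7.

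**Figure D3:**
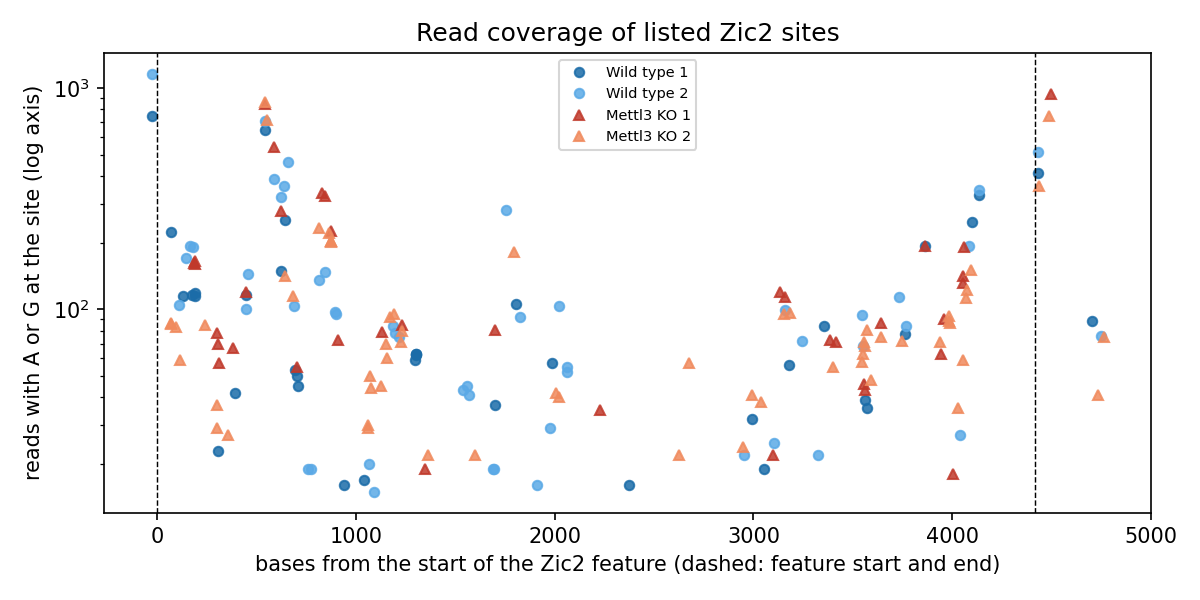
Reads with A or G at each listed Zic2 site (vertical axis, log scale) against distance in bases from the feature's start, circles for the WT and triangles for the KO. Inside the feature the deepest sites of both genotypes lie in the first 1000 bases, at 645 to 868 reads, and sites between 2000 and 2999 bases have 103 reads or fewer.

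Zic2 was an abundantly covered gene in both genotypes. The coverage signal deposited for the gene, which is not a read count, was 243 and 322 in the WT and 364 and 284 in the KO. Divided by that of the median gene, it came to 4.84 and 5.61 in WT libraries and 6.81 and 6.12 in KO libraries, above 94.5% to 97.0% of 8285 genes. Both scaled KO values lay above both WT values, as they did in 24.7% of genes. The log2 change was 0.31 ± 0.17 (SE; 95% interval -0.06 to 0.68; limma adjusted p 0.303), so a rise was not shown. Over the whole fit the KO had 220 genes higher (2.66%) and 258 lower (3.11%). Without centring on the median gene these were 101 and 300, and the median change of all genes moved from -0.02 to -0.13. These are values of RNA in whole organoids, in which a change in the number of Zic2-expressing cells and a change in RNA per cell cannot be told apart.

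Relatives with the same kind of zinc fingers gave no call. Of 6 Gli and Glis genes, 4 had a coverage value in all libraries, 0 passed the limma test (1 at an unadjusted p under 0.05), and their median log2 change was 0.32 against -0.02 over all genes. Gli2, an activator of Hedgehog targets, had coverages of 0.622 and 0.621 times the median gene in the WT and 0.873 and 1.02 times in the KO (log2 change 0.61 ± 0.17, SE; limma adjusted p 0.0580). Gli3, the main repressor of the family, had a log2 change of 0.33 ± 0.16 (SE; limma adjusted p 0.245). Of 9 Hedgehog pathway genes, 5 had values, among them the transducer Smo and the co-receptors Boc, Cdon and Gas1, and 0 passed the limma test (1 at an unadjusted p under 0.05).

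Of 17 genes of the dorsal neural tube and neural plate border, where Zic factors are expressed later, 4 had coverage values, and 3 of these rose in the KO. Wnt1, a signal of the dorsal midbrain, had 0.409 and 0.302 times the median gene in the WT and 1.33 and 1.86 times in the KO (log2 change 2.16 ± 0.21, SE; limma adjusted p 0.000248). Msx2 rose by 1.22 ± 0.18 (SE; limma adjusted p 0.00408) and Lmx1b, a factor of roof plate and isthmus, by 1.01 ± 0.20 (SE; limma adjusted p 0.0174). The fourth, Bmp7, had a change of 0.43 (limma adjusted p 0.254). Wnt1 passed whichever library was left out. Lmx1b did not without KO replicate 2 (limma adjusted p 0.125), nor did Msx2 without KO replicate 1 or KO replicate 2 (limma adjusted p 0.0744 and 0.0657).

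Rax, the defining marker of the eye field, had 20 and 35 listed sites in the WT and 0 and 0 in the KO. Of 10 eye field and anterior genes, 6 had coverage values in all libraries. Of these, Six3, Lhx2 and Hesx1 fell, with log2 changes of -3.01 ± 0.19, -2.81 ± 0.16 and -2.52 ± 0.22 (SE; limma adjusted p 8.61e-06, 8.61e-06 and 0.000138). Mab21l2, which the eye also needs, rose by 2.92 ± 0.18 (SE; limma adjusted p 8.61e-06). All 4 passed without each library in turn. The summed coverage of the 6 genes was 29.6 and 31.5 times the median gene in the WT and 10.1 and 9.55 times in the KO, while Pax6 had 2.22 and 2.23 against 2.61 and 2.23 times (limma adjusted p 0.729). Six6 and Vax1 had no site in any list. The label of retinal organoids is thus matched by early eye field genes in the WT and less so in the KO, and the part of this shift in the Zic2 values was not tested.

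All 10 early neural plate genes had values, of which 2 fell and 1 rose. Sox2, the neural progenitor factor, fell by 0.79 ± 0.18 on the log2 scale (SE; limma adjusted p 0.0262). Foxd4 went from 2.85 and 2.94 times the median gene to 1.21 and 1.26 times (log2 change -1.23 ± 0.16, SE; limma adjusted p 0.00224). Hes5, a Notch target, rose by 0.89 ± 0.23 (SE; limma adjusted p 0.0459). Leaving out 1 library ended some of these calls: Sox2 without WT replicate 2, KO replicate 1 or KO replicate 2 (limma adjusted p 0.0930, 0.0744 and 0.153), Foxd4 without KO replicate 2 (0.0504) and Hes5 without WT replicate 2, KO replicate 1 or KO replicate 2 (0.346, 0.122 and 0.264). Hes5 also missed the threshold where genes with several deposited values entered at their most frequent one (0.0705).

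Markers of other cells were few among the genes with coverage values. Of 8 neural crest genes 2 had coverage values, Sox9 and Foxd3, and 0 passed the limma test (0 at an unadjusted p under 0.05); their summed coverage was 2.08 and 1.82 times the median gene in the WT and 2.15 and 2.28 times in the KO. Of 7 pluripotency and epiblast genes 5 had values, and the summed coverages of these 5 were 8.95 and 9.61 against 6.18 and 5.13 times. Of the 5, Utf1, Fgf5 and Pou5f1 fell. These calls were lost without KO replicate 2 (limma adjusted p 0.0970, 0.113 and 0.203), and for Fgf5 and Pou5f1 also without KO replicate 1 (0.107 and 0.104) and WT replicate 2 (0.121 and 0.330), and for Fgf5 without WT replicate 1 (0.111). Pou5f1 also missed it with the most frequent deposited value (0.0635). Of 5 neuronal genes 2 had values, with summed coverages of 5.25 and 5.19 against 4.504 and 4.11 times, and Stmn2 fell by 0.71 ± 0.17 (SE; limma adjusted p 0.0318), which was lost without each library in turn (limma adjusted p 0.0839 to 0.154). No mesoderm or endoderm gene of the lists had a coverage value in all libraries. Of 6 reference genes, 4 had values and 0 passed the limma test (1 at an unadjusted p under 0.05). The number of genes called over the whole series also leaned on single libraries: 478 with all 4, but 225 without WT replicate 2, 62 without KO replicate 1 and 20 without KO replicate 2.

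**Figure D4:**
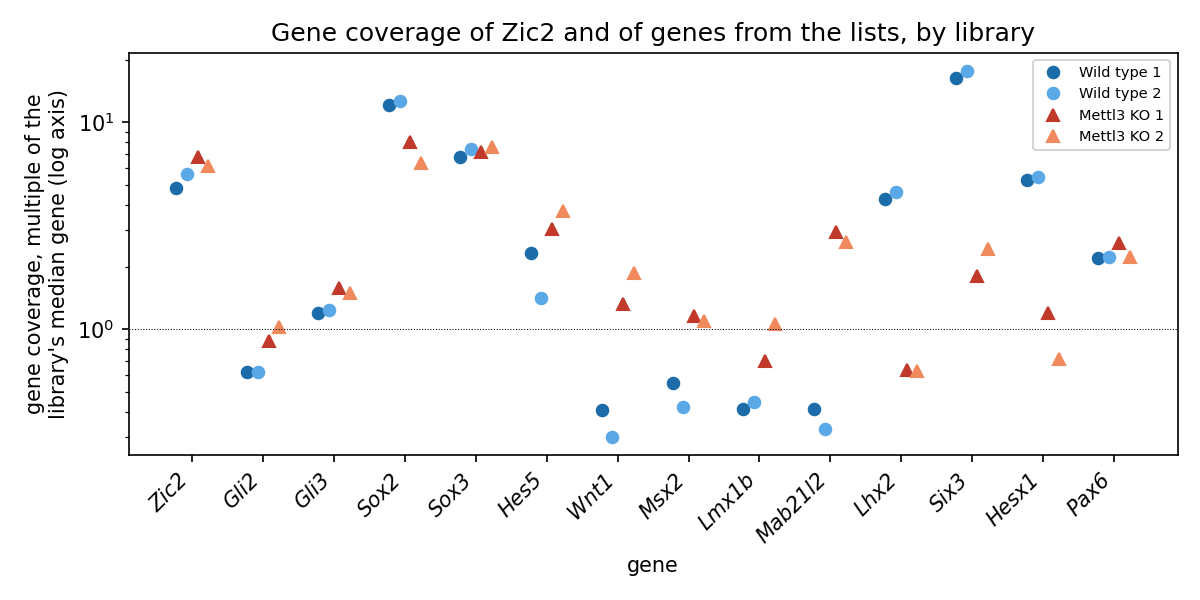
Gene coverage divided by that of the median gene (vertical axis, log scale; the dotted line is the median gene) for Zic2 and genes of the lists, circles for the WT and triangles for the KO. Zic2 lies between 4.84 and 6.81 in all 4 libraries, while Six3, Lhx2 and Hesx1 are lower and Wnt1, Msx2 and Mab21l2 higher in both KO libraries.

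The conversion rate that the authors gave for Zic2, a measure of how completely its adenosines were converted, did not overlap between genotypes. It was 96.1% and 96.3% in the WT and 97.2% and 97.5% in KO libraries, a rise of 1.18 percentage points (exact permutation p = 0.333). Both KO values lay above both WT values, as in 50% of 8285 genes. The median gene rose by 0.633 percentage points, and 69.6% of genes rose by less than Zic2. How much of the rise at Zic2 is shared with other genes was not tested.

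The genes whose coverage profile over the 4 libraries was most like that of Zic2, by root mean square difference of centred log2 values, were Lmf1 (0.0149) and Fbxo42 (0.0160). Lmf1 encodes a lipase maturation factor and Fbxo42 an F-box protein of ubiquitin ligases. Their log2 changes were both 0.31, with limma adjusted p of 0.290 and 0.301. With 4 libraries many genes can have a similar profile.

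For the other Zic genes, only the stretches around them can be described. In the RefSeq table of GRCm38, the genes nearest to Zic1 and Zic4 that also have a feature in the lists are A730094K22Rik and Plscr1, and in the lists' coordinates they bound chromosome 9 from 91233007 to 92131802. In this stretch the plus strand, that of Zic4 in the RefSeq table, held 2 and 2 WT sites and 0 and 0 KO sites, and the minus strand, that of Zic1, held 1 site in KO library 2. Zic5 lies between Gm5089 and 2610035F20Rik, a stretch of chromosome 14 from 122688528 to 122704459 beside Zic2. Its minus strand, the strand of Zic5 in the RefSeq table, held 4 sites in WT library 2, 2 in KO library 2 and 0 in the others. The positions 122702105 and 122702161 were listed in both of those libraries, with levels of 0.333 and 0.278 in the WT at 18 and 36 reads, and 0.933 and 0.333 in the KO at 15 and 21 reads. The authors' nearest feature for both is Gm56762, so the rule does not place them in Zic5, and the depths are low.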

How the data were processed

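For each of the 4 libraries the authors deposited a separate table of called sites. Per the file headers each site has counts of reads with A or G and of reads with A, and the deposited fraction of unconverted reads equals their ratio. The deposited p-values come from a test not stated in the sources used here, as are the aligner and caller. A coverage signal and a conversion fraction of the gene stand beside every site, per the file headers; 18.4% to 24.3% of sites carry a chromosome-wide value instead, taken as such where 1 value spanned both strands of a chromosome. Per the submitters' processing notes the build is mm10, but of 3360 sites inside promoter windows of the GRCm38 table only 23.1% were an A there, so positions are those of the lists, in a build not settled here, and no sequence was read. Repeated positions (28 to 53 a list) were collapsed. For gene-level values a site was assigned to the protein-coding feature spanning it on its strand, or else to a feature of another kind, if there was exactly 1 (88.3% of sites); biotypes came from the RefSeq table.

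Differences in level went through edgeR's quasi-likelihood test (version 4.0.16, R 4.3.3), which modelled each site's unconverted and converted reads with library terms and an effect of genotype on the unconverted reads, at sites with 20 or more reads in all 4 lists. Gene coverage was tested with limma 3.58.1 on log2 values centred on the median gene, over protein-coding genes with 1 value in each library. Benjamini-Hochberg adjustment ran over all features, with a threshold of 0.05. Expected KO coverage is the wild-type coverage times the ratio of gene coverages, the lower of the 2 estimates, which is not a lower bound. Both tests were checked on simulated data. Reads are not known to be independent molecules, so Wilson 95% intervals cover counting error only. Named were the Zic2 sites shared within a genotype (up to 5, by mean level), the site in all 4 lists, up to 3 genes of each list by p, and the 2 genes most like Zic2; the site at 122716902, Hesx1, Gli2, Gli3, Bmp7, Pax6, Rax and others named in passing were added after their values were seen. The Zic genes and the lists were chosen with earlier results of these data known. Alternatives covered the test, the coverage and level minima, centring, the reading of gene values, a replicate block and leaving out each library.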

Additional observations from a re-analysis of the deposited data

How the results depend on the processing

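The change of Zic2 gene coverage kept its sign and stayed short of the threshold under every alternative run (log2 0.20 without centring to 0.42 without WT replicate 2; limma adjusted p 0.126 to 0.782). The number of genes called was 748 with a mean coverage of at least 50, chosen after seeing the data, and 331 to 535 under the other settings with all libraries; without each library it ranged from 20 to 400. Without centring 101 genes were higher and 300 lower, against 220 and 258. The pooled Zic2 level, KO minus wild type, was 0.0291; leaving out a library gave -0.213 to 0.0467, the lowest without KO replicate 2, where 3 sites enter in place of 1 (edgeR adjusted p 0.0692). Sites called lower numbered 41, or 117 by Fisher's exact test on summed counts, and 0 to 157 without each library. The difference in listed Zic2 sites, 6.5 more in the KO, became -7.5 and -5.5 with level minima of 0.2 and 0.3 and -4 where the deposited feature had to be Zic2; without each library it was -4.5 to 17.5. The share of wild-type-shared Zic2 sites in neither KO list became 0% of 2 sites at a level of at least 0.2 or 0.3, 50% of 6 with the sites beside the feature, and 25.0% to 80.5% without each library, where leaving out a wild-type library admits sites of 1 library. The cause of these shifts was not tested. The replicate numbers are not known to pair the libraries: deviations of same-numbered libraries correlated at -0.0274 for gene coverage and 0.0576 for levels. With a replicate block 51 sites were lower and 488 genes changed, and no Zic2 call changed (limma adjusted p 0.359 for coverage, edgeR adjusted p 0.725 for the pooled level). Sites with coverage below 15 reads, or levels below 0.1, are beyond these lists.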
